A study of Mus musculus with 6 samples.

Results

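Lipid droplet genes were examined in livers of mice overdosed with acetaminophen (APAP). The 10 genes encode 4 perilipins (Plin2, Plin3, Plin4 and Plin5), a pair of CIDE proteins (Cideb and Cidec), the triglyceride lipase Pnpla2 with its inhibitors G0s2 and Hilpda, and the phosphatidate phosphatase Lpin1. They were taken by name from the 34745 genes of the deposited count table, and all 10 were among the 13734 genes with enough reads to test. Bulk RNA-Seq had been performed on whole liver of WT C57BL/6J mice, which the study's methods give as males of 8 to 10 weeks. Mice of both groups were fasted for 12 hours, and 1 group then received a single injection of APAP at 300 mg/kg into the abdomen, with livers taken 12 hours later, while the other received saline. The labels list 3 livers per group. Counts of 5 libraries were analysed here, APAP replicates 1 and 3 and the saline libraries WT1, WT2 and WT3, and APAP replicate 2 was not analysed here.

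A lipid droplet is a store of triglyceride and sterol ester inside a single layer of phospholipid. Perilipins coat that layer and limit the access of lipases, and CIDE proteins sit where droplets touch and pass lipid from one to another. Lipolysis starts with Pnpla2, also called ATGL, which removes the first fatty acid from triglyceride, needs the coactivator Abhd5 and is inhibited by G0s2 and Hilpda. A liver stores lipid in droplets when more fatty acid arrives than is burned or exported, as in fasting, and several droplet genes are known targets of the fatty acid receptor PPARα.

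Library totals ran from 13378445 to 15976339 counts. Levels are given as CPM, the counts of a gene relative to a fixed library total, with library sizes scaled by TMM, a method that sets libraries to a common scale by the bulk of their genes. The scaling factors were 1.27 and 1.09 for APAP replicates 1 and 3 and 0.783, 0.980 and 0.938 for WT1, WT2 and WT3. Albumin took 6.56% and 9.79% of the counts with APAP, against 9.31% to 11.3% with saline. The 6 hepatocyte markers summed to 72656 and 114145 CPM with APAP and to between 114904 and 157604 CPM in saline livers, a sum carried by albumin. Other hepatocyte markers differed in direction, and 0 of the 6 were called. Fgb, a fibrinogen chain, was higher, at 10378 and 7867 CPM with APAP and between 4614 and 6593 CPM in saline livers. Ttr was lower, at 1768 and 3015 CPM with APAP and between 5974 and 10054 CPM in saline livers. Tat was also lower, at 1157 and 1000 CPM against 1815 to 4043 CPM. For Apoa1 and Serpina1a the groups overlapped. In bulk liver, fewer cells of a type and less RNA per cell cannot be told apart. The sex-linked genes separated the groups, with Xist at 0.764 and 1.73 CPM with APAP and 289.6, 914 and 882 CPM in saline livers, and with 1344 and 998 counts of Ddx3y with APAP against 0, 0 and 1 with saline. The treatment and the sex-linked difference therefore cannot be told apart in any comparison of these groups. Ddx3y lies on the Y chromosome, and its near absence from the saline libraries conflicts with the males given in the study's methods. The sex of the mice was not tested.

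Droplet genes did not move as 1 block. Cidec, Hilpda and Plin2 rose in APAP livers, by 5.98, 3.73 and 2.49 on the log2 scale, and the other 7 genes did not pass the test. The test was edgeR's quasi-likelihood test, and a gene was called at an adjusted p (Benjamini-Hochberg, over all tested genes) under 0.05. Thus 3 of the 10 genes were called higher and 0 lower, against 3.7% of all tested genes called higher and 3.53% called lower (7.23% in either direction). The 10 genes were chosen with earlier results of these data known, so this count is not independent evidence of a difference. Cidec entered the test through the APAP libraries alone, and was not tested when 10 counts were required in every library. With an unadjusted p under 0.05, 5 of the 10 genes were higher, the 3 called ones with Plin3 and Pnpla2, against 13.1% of all tested genes higher (24.9% in either direction). With adjustment, edgeR's exact test, its likelihood ratio test and DESeq2 each called 3 of the 10. Over all 13734 tested genes these called 1776, 1835 and 2093, against 993 with the quasi-likelihood test. By the threshold of the study, a fold change of at least 1.5 with an unadjusted p under 0.05, 4 of the 10 were higher, the 3 called genes and Pnpla2, and 12.3% of all tested genes passed it in that direction. In 5 genes both APAP libraries were above all saline libraries, a pattern found in 24% of all tested genes, and in Cideb both were below, as in 20.1% of tested genes. The median log2 fold change was 0.64 over the 10 genes and 0.03 over all tested genes.

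**Figure D1:**
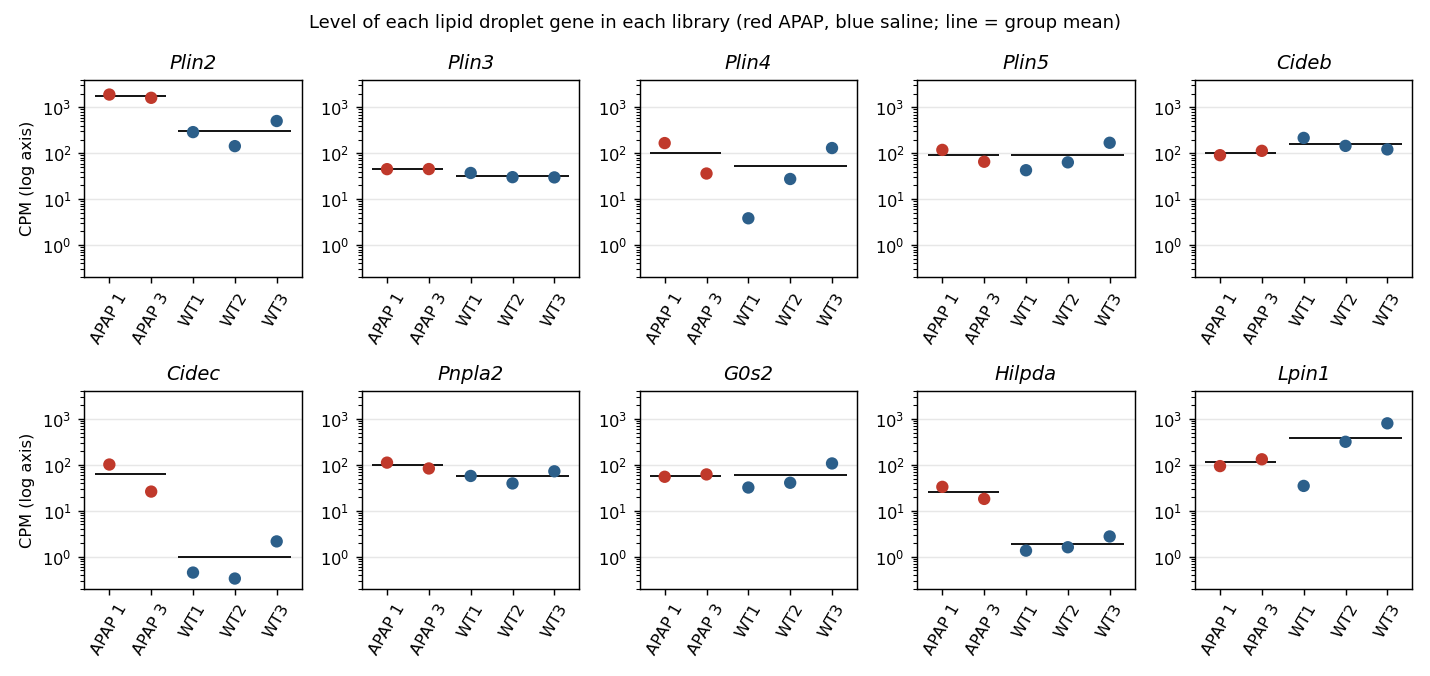
CPM (log axis) of each of the 10 genes in the 2 APAP libraries and the 3 saline libraries, 1 point per library. In Plin2, Cidec and Hilpda the APAP points lie far above the saline points, while in Plin4, Plin5, G0s2 and Lpin1 the groups overlap. Lines are group means.

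**Figure D2:**
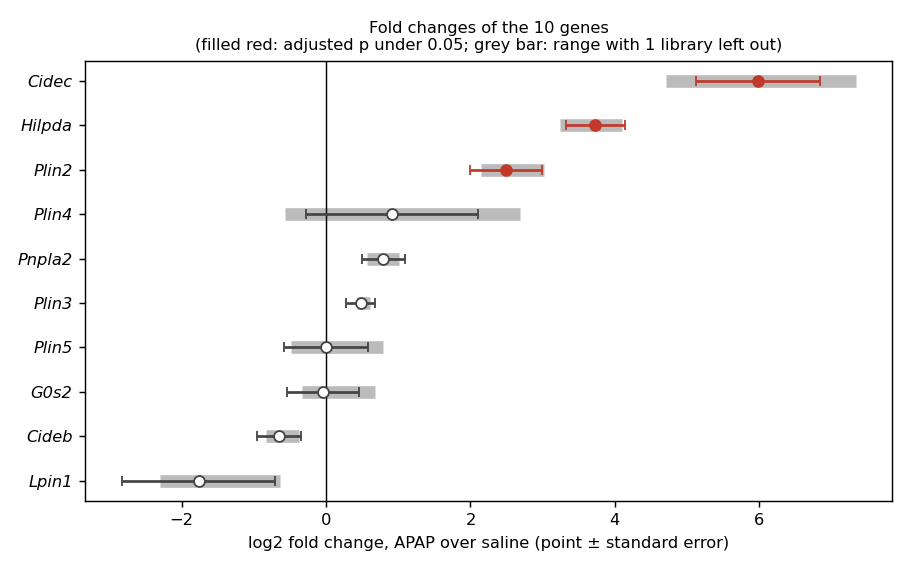
Fitted log2 fold change of each gene, APAP over saline, with error bars of 1 standard error, grey bars for the range with 1 library left out, and called genes filled. Cidec, Hilpda and Plin2 stand highest, at 5.98, 3.73 and 2.49, and Lpin1 is lowest, at -1.77, with the second widest bar after Plin4.

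The stretches upstream of 4 of these genes are shown because they set the 3 genes that rose beside Plin5, the perilipin whose group means were nearly equal. They come from RefSeq promoter windows on GRCm38.p6, start 250 bases before the transcription start, and are cut before the first annotated exon base. Capitals mark AGGTCA, the hexamer bound by nuclear receptors such as PPARα, GCGTG, a core of the hypoxia response element, and CCAAT, on either strand.
Plin2, chr4:86670061-86670309, minus strand: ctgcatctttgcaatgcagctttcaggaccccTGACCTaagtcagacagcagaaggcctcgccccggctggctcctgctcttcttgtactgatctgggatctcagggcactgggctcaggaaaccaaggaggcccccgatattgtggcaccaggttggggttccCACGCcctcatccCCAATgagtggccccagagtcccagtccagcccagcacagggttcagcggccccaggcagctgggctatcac
Plin5, chr17:56117597-56117798, minus strand: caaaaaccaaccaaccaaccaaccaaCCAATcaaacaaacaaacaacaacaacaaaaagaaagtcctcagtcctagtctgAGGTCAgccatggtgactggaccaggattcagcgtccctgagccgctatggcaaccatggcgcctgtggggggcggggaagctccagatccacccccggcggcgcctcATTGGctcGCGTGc
Cidec, chr6:113435761-113436010, minus strand: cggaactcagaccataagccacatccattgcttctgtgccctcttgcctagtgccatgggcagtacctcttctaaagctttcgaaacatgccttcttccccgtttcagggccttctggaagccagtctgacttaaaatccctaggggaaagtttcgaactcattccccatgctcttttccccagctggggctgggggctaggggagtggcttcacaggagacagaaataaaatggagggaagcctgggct
Hilpda, chr6:29272238-29272487, plus strand: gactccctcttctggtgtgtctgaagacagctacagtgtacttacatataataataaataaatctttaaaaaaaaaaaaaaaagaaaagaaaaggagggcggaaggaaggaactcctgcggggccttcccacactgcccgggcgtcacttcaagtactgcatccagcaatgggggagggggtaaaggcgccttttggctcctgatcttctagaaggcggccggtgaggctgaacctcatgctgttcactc

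The windows of Plin2 and Plin5 held the same 3 kinds of letters, and whether these bear on the level of either gene was not tested. AGGTCA lay on the minus strand at -218 to -213 of the Plin2 window, counted from the start site, and on the plus strand at -170 to -165 of the Plin5 window. Among the 10 genes, the hexamer was also found in Lpin1, at -74 to -69, so that 3 of 10 windows held it against 14% of the 32851 RefSeq promoter windows of the same length. The RefSeq start site of Lpin1 lies 21196 bases from the start of the gene in the count table. GCGTG was found in 3 of the 10 windows (Plin2, Plin5 and G0s2) and in 28.2% of all. In the G0s2 window only the first 10 bases lie before an annotated exon base, of G0s2 or Lamb3, and the match at -142 to -138 lies after them. Whole windows were searched, exon bases included. CCAAT was found in all 4 perilipin windows and in none of the other 6, and 33.8% of all windows held it. Its position was alike in Plin2 (-73 to -69, plus strand) and Plin3 (-75 to -71, minus strand). The match in Plin4, at -18 to -14, lay past the first annotated exon base of that gene. The windows of Cidec and Hilpda held none of the 10 motifs searched. The other 7 were ACGTG (0 of 10, 16.6% of all windows), the E-box CACGTG, which contains ACGTG (0 of 10, 6.02%), TATAAA (Cideb alone, 12.4%), the cAMP element TGACGTCA (0 of 10, 1.55%), the heat shock element (0 of 10, 0.466%), the PPAR response element of paired hexamers (0 of 10, 0.338%) and the glucocorticoid response element (0 of 10, 0.0609%). A match describes letters in a window of 250 bases and not binding.

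Plin2, also called adipophilin, is the main perilipin of hepatocytes and coats most of their droplets. Its gene lies on the minus strand of chromosome 4 (GRCm38, chr4:86648386-86670060). Plin2 was at 1903 and 1616 CPM in APAP replicates 1 and 3, and at 289.6, 143 and 505 CPM in WT1, WT2 and WT3. Both APAP libraries exceeded every saline library, and the saline libraries were spread by 3.52-fold. Means were 1760 ± 202 CPM (SD, n = 2) with APAP and 313 ± 182 CPM (SD, n = 3) in saline livers, giving a log2 fold change of 2.49 (SE 0.50) with an adjusted p of 0.0352. The call depended on single libraries. With APAP replicate 1, APAP replicate 3, WT1 or WT2 left out, the adjusted p was 0.146, 0.0838, 0.0957 and 0.0881 and the log2 fold change 2.37, 2.59, 2.45 and 2.15, while without WT3 they were 0.0227 and 3.02. Of the 50-base words of the Plin2 transcript, 4.89% occurred also in another gene, mostly the annotated gene Gm12551; reads from these words cannot be assigned to 1 gene.

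In rank among the tested genes with a known length, ordered by RPKM, the CPM divided by exon length in kilobases, Plin2 stood at 72 and 93 in the APAP libraries. In WT1, WT2 and WT3 it stood at 588, 914 and 303. By mean RPKM with APAP it was the 9th of the 508 genes called higher.

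Plin3, or TIP47, is a perilipin that is also found free in the cytosol and settles on new droplets. It was at 45.2 and 45.4 CPM in APAP livers, against 37.4, 30.3 and 29.9 CPM in saline livers. The APAP libraries lay just above the saline range, and Plin3 had the smallest spread among the saline libraries of the 10 genes, 1.25-fold. The log2 fold change was 0.48 (SE 0.20), with an adjusted p of 0.192. Scaled by library size alone, without TMM factors, Plin3 had a log2 fold change of 0.89 and an adjusted p of 0.0412, and the median log2 fold change of all tested genes was then 0.42.

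Plin4 and Plin5 are neighbours on chromosome 17, with 1797 bases between them on the minus strand (chr17:56100591-56109803 and chr17:56111601-56117596). Plin3 follows on the same strand after a further 159879 bases (chr17:56278962-56290511). Plin4 is known best from adipose tissue, and Plin5 from tissues that burn fatty acids, where it links droplets to mitochondria. Plin4 was at 167 and 36.3 CPM in APAP livers, against 3.85, 27.6 and 130.3 CPM in WT1, WT2 and WT3. The groups overlapped, and the spread among the saline libraries was 33.8-fold, wider than in 97.2% of tested genes. Its log2 fold change of 0.91 (SE 1.20) had an adjusted p of 0.686, and it was -0.57 without APAP replicate 1. Plin5 was at 118.7 and 65.6 CPM in APAP livers, against 42.9, 63.6 and 169.8 CPM in saline livers. Group means of Plin5 were 92.2 ± 37.6 CPM (SD, n = 2) with APAP and 92.1 ± 68.1 CPM (SD, n = 3) with saline, with APAP values inside the saline range. The log2 fold change of Plin5 had a standard error of 0.58, so that a change of that size, and also one well above it, could not be detected here.

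Adipocyte markers were uneven between libraries. Cfd, the adipokine adipsin, had 72 and 7 counts with APAP and 0, 12 and 54 counts in WT1, WT2 and WT3. As with Plin4, its highest libraries were APAP replicate 1 and WT3 and its lowest was WT1. Adipoq, at 8 counts or fewer per library, shared that order, and the other markers of the list did not. Plin1, the adipocyte perilipin, had 6 and 2 counts with APAP and 0, 7 and 5 in WT1, WT2 and WT3. Of 8 adipocyte markers, 7 were in the table and 2 could be tested, Lep had 0 counts in every library, and Adipoq had 6 and 2 counts with APAP and 0, 1 and 8 with saline. The summed level of the 7 markers was 59.99 and 45.1 CPM with APAP and between 2.87 and 17.4 CPM in saline livers. Fabp4, the most abundant of the 7 and found also in macrophages and endothelial cells, made up most of this sum, at 54.8 and 44.2 CPM with APAP against 2.87, 10.8 and 12.6 CPM in saline livers. The part of adipose tissue in the levels of Plin4 and of the other droplet genes was not tested.

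Within the perilipin mRNA, the shares of Plin2, Plin3 and Plin5 lay apart between groups and that of Plin4 did not. Shares are parts of the same sum, so a rise of Plin2 lowers the shares of the others. The lower shares of Plin3 and Plin5, and the lower ratio of Plin5 to Plin2, are therefore not results apart from the rise of Plin2. Summed over Plin2, Plin3, Plin4 and Plin5, their level per kilobase of exon was 640 and 510 RPKM with APAP and 114, 84.1 and 256 RPKM in WT1, WT2 and WT3. Plin2 made up 84.7% and 90.3% of that sum with APAP, against 72.6%, 48.5% and 56.3% with saline. Plin5 made up 8.90% and 6.16% with APAP, below each saline library at 18.1%, 36.3% and 31.8%. The share of Plin3 was 1.87% and 2.35% with APAP and 8.69%, 9.51% and 3.09% with saline. Plin4 held a share of 4.52% and 1.23% with APAP and of 0.587%, 5.69% and 8.82% with saline. Within a library, the ratio of Plin5 to Plin2 per length was 0.105 and 0.0683 with APAP and 0.249, 0.747 and 0.566 with saline. All saline ratios were above the APAP ratios, by 2.48 on the log2 scale between means. An exact permutation test of this difference, two-sided, gave p = 0.2, the smallest that 2 libraries against 3 can give. The ratio of Plin4 to Plin2 was 0.0534 and 0.0137 with APAP and 0.00809, 0.117 and 0.157 with saline, an overlap with an exact permutation p of 0.6.

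**Figure D3:**
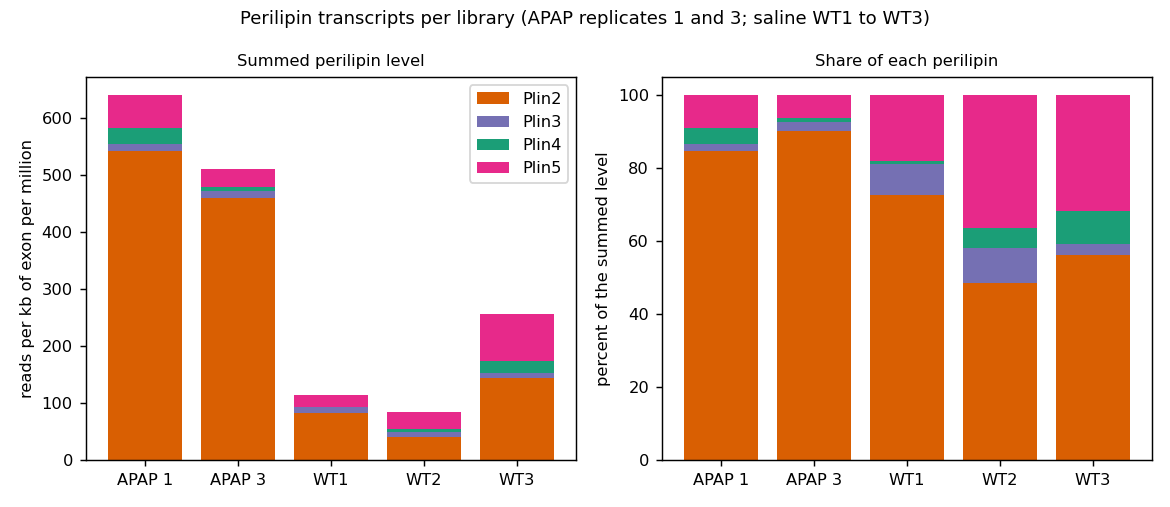
Share of each perilipin (percent) in the summed RPKM of Plin2 to Plin5, 1 stacked bar per library. Plin2 fills 84.7% and 90.3% of the bars of APAP replicates 1 and 3 and between 48.5% and 72.6% of the saline bars.

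CIDE proteins bring droplets into contact and let them grow. Cideb is the hepatocyte member and also loads lipid onto VLDL particles, while Cidec, called Fsp27 in mice, is the member of adipocytes and of fatty liver. Cidec (chr6:113424634-113435760, minus strand) had 1715 and 420 raw counts with APAP and 5, 5 and 32 with saline. In CPM it was at 100.8 and 26.0 with APAP and at 0.448, 0.332 and 2.14 with saline. Every APAP value exceeded every saline value, and APAP replicate 1 was the higher of the pair. The log2 fold change of Cidec was 5.98 (SE 0.86), the greatest of the 10 genes, with an adjusted p of 0.0136. It passed the filter on low counts through the APAP libraries alone. Without APAP replicate 1, WT1 or WT2 it was no longer called, with log2 fold changes of 4.70, 5.69 and 5.55 and adjusted p of 0.0551, 0.0502 and 0.0663. Without APAP replicate 3 or WT3 it was called, with log2 fold changes of 6.64 and 7.34.

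Cideb (chr14:55754045-55758458, minus strand) was at 91.1 and 113.4 CPM in APAP livers, against 216.5, 145.3 and 121.7 CPM in saline livers. Both APAP values lay under the saline range, the lower edge of which was close. The log2 fold change was -0.66 (SE 0.31) with an adjusted p of 0.242. Of the exon bases of Cideb, 76.3% lie opposite exons of Nop9, a nucleolar protein gene with 380 and 330 counts with APAP and 222, 254 and 265 with saline. The strand setting of the counting is not given in the sources used here, and without strand the reads of these genes cannot be told apart. The ratio of Cidec to Cideb per length was 0.886 and 0.184 with APAP and 0.00166, 0.00183 and 0.0141 with saline. The groups did not overlap in this ratio, and the exact permutation p was 0.2, the smallest possible.

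Pnpla2 (chr7:141455198-141460743, plus strand) was at 110.8 and 82.7 CPM in APAP livers, against 56.8, 39.1 and 71.8 CPM in saline livers. APAP values lay above the saline range, with WT3 the nearest. The log2 fold change was 0.79 (SE 0.30) with an unadjusted p of 0.0327 and an adjusted p of 0.159. Abhd5, its coactivator, was at 39.1 and 42.0 CPM in APAP livers, against 31.9, 29.2 and 32.8 CPM in saline livers, with a log2 fold change of 0.37 (SE 0.18) and an adjusted p of 0.268.

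Of the inhibitors of Pnpla2, Hilpda was called and G0s2 was not. Hilpda, a small protein first described in hypoxic cells, lies on the plus strand of chromosome 6 (chr6:29272488-29275446). It had 560 and 291 raw counts with APAP and 15, 24 and 41 with saline, or 32.9 and 17.99 CPM against 1.34, 1.59 and 2.74 CPM. Both APAP values were far above all saline values, which spread by 2.04-fold. Hilpda had a log2 fold change of 3.73 (SE 0.41) and an adjusted p of 0.00542, the lowest of the 10 genes. It was called under all 13 alternative settings, the 5 that leave out 1 library included, with log2 fold changes from 3.24 to 4.14 and an adjusted p of at most 0.0448.

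G0s2, the other inhibitor, lies on the minus strand of chromosome 1 (chr1:193272161-193273217) within the span of Lamb3 but shares no exon base with it. It was at 54.5 and 61.4 CPM in APAP livers, against 31.8, 40.4 and 106.4 CPM in saline livers. The APAP values fell inside the saline range, and the log2 fold change was -0.04 (SE 0.50), with an adjusted p of 0.972. Set against the lipase within each library, Hilpda stood to Pnpla2 per length at 0.813 and 0.595 with APAP and at 0.0648, 0.112 and 0.105 with saline. These ratios did not overlap, with a difference of 2.93 on the log2 scale and an exact permutation p of 0.2, the smallest possible. The ratio of G0s2 to Pnpla2 was 1.71 and 2.57 with APAP and 1.94, 3.59 and 5.14 with saline, an overlap with an exact permutation p of 0.4.

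**Figure D4:**
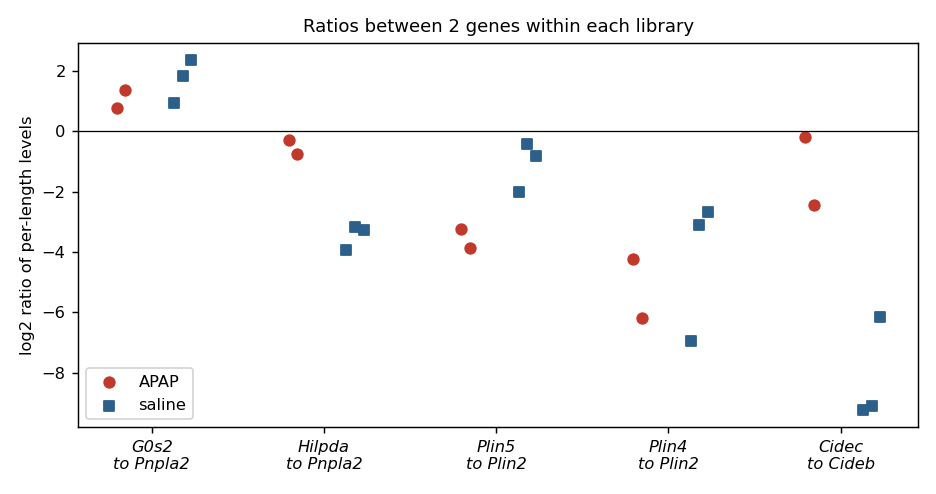
Log2 ratio of the per-length levels of 2 genes within each library, with APAP libraries as circles and saline libraries as squares. Groups are apart for Hilpda to Pnpla2, Plin5 to Plin2 and Cidec to Cideb, and they overlap for G0s2 to Pnpla2 and Plin4 to Plin2.

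Lpin1, or lipin, makes the diacylglycerol used for triglyceride and acts in the nucleus as a coactivator of PPARα. The gene lies on the minus strand of chromosome 12 (chr12:16535669-16589770). It was at 93.1 and 131.0 CPM in APAP livers, against 34.5, 315.0 and 794 CPM in WT1, WT2 and WT3. The APAP libraries lay between WT1 and WT2, and the saline libraries differed from each other by 23.0-fold, more than in 97.1% of tested genes. The log2 fold change of Lpin1 was -1.77 (SE 1.06) with an adjusted p of 0.36. It was -2.30 without WT1 and -0.64 without WT3, and was called in neither fit.

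The order of the genes by level was partly different between groups. By mean RPKM, which allows for exon length, Plin2 came first with APAP at 501, then Cideb at 68.7, G0s2 at 66.5, Plin5 at 44.2, Cidec at 34.1, Pnpla2 at 32.0, Hilpda at 23.1, Plin4 at 17.6, Plin3 at 12.0 and Lpin1 at 11.6. With saline, Cideb came first at 108, and Plin2 followed at 89.1, G0s2 at 68.4, Plin5 at 44.1, Lpin1 at 39.4, Pnpla2 at 18.5, Plin4 at 9.34, Plin3 at 8.59, Hilpda at 1.72 and Cidec at 0.524. Cidec was last with saline and in the middle of the order with APAP. Ranked by RPKM among tested genes, Cidec stood at 550 and 2179 with APAP and between 9581 and 12839 with saline. Hilpda stood at 983 and 1887 with APAP and between 7398 and 9133 with saline. Neighbours such as Cideb and G0s2 with APAP, or G0s2 and Plin5 with saline, lay within the spread of the libraries. The order also depends on the length used. Plin2 has 3512 exon bases and a longest protein-coding transcript of 1888, and Cideb 1488 and 1212. By mean CPM with saline, Plin2 at 313 was above Cideb at 161. Orders by transcript length are not given here.

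The saline livers differed among themselves in a shared direction. WT3 was the highest saline library for 8 of the 10 genes, all but Plin3 and Cideb, which were highest in WT1. Over all tested genes, 36.1% were highest in WT3. The ratio of the highest to the lowest saline library was above its median over all tested genes, 1.55, in 9 of the 10 genes, and it was 6.44 in Cidec, 3.96 in Plin5, 3.34 in G0s2 and 2.04 in Hilpda. Among 13 PPARα targets that do not act at droplets, 12 were also highest in WT3. Their summed level was 7233, 5283 and 13885 CPM in WT1, WT2 and WT3 and 10741 and 10561 CPM with APAP, inside the saline range. What set WT3 apart was not tested.

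Over the 5 libraries, the genes most alike were Plin5 and G0s2, by the root mean square difference of log2 CPM after each gene was centred, which was 0.34. Plin3 and Pnpla2 followed at 0.36 and Plin3 and Cideb at 0.58. This difference is also small where both genes vary little, and Plin3 and Cideb had log2 fold changes of opposite sign, 0.48 and -0.66. Plin2 was nearest to Hilpda among the genes that rose, at 0.71, the seventh of 45 pairs. Cidec and Lpin1 were the farthest apart, at 3.76. These values describe 5 libraries that share depth and scaling, with no test.

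Related genes of droplets and lipid handling were called in both directions. Of 81 related genes in 10 lists, 80 were in the table and 76 were tested, with 4 called higher and 7 lower, against 3.7% and 3.53% of all tested genes, and a median log2 fold change of 0.12 against 0.03. Other droplet surface proteins included a pair of called genes, both lower, among 8 tested. Ldah, a droplet-bound hydrolase, had a log2 fold change of -0.96 (SE 0.21, adjusted p 0.0449), and Mettl7a1, a methyltransferase-like droplet protein, one of -1.88 (SE 0.42, adjusted p 0.0451). Hsd17b13, the most abundant of that list, was at 575 and 691 CPM with APAP and between 463 and 501 CPM in saline livers, with an adjusted p of 0.341.

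Ces1d, a carboxylesterase that hydrolyses triglyceride, was the 1 gene called among 10 other lipolysis genes. It was at 201 and 219 CPM in APAP livers, against 1604, 1039 and 833 CPM in saline livers, a log2 fold change of -2.46 (SE 0.38, adjusted p 0.0162).

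In triglyceride synthesis, Gpat4, an acyltransferase of the first step, fell by 0.9995 on the log2 scale (adjusted p 0.0458) and Lpin3, a relative of Lpin1, rose by 1.51 (adjusted p 0.0485), among 9 tested. Dgat2, which adds the last fatty acid, was at 189 and 260.1 CPM in APAP livers, against 456, 440.4 and 356 CPM in saline livers, with an adjusted p of 0.0974. In fatty acid uptake, Slc27a5 and Vldlr fell, by 1.54 and 3.15 on the log2 scale, and Fabp4 rose by 2.49, among 8 tested, with adjusted p of 0.0421, 0.0238 and 0.0401. Fabp1, the most abundant fatty acid binding protein of hepatocytes, was at 1227 and 3620 CPM with APAP and between 608 and 1241 CPM in saline livers, with an adjusted p of 0.146. Of 8 regulators, Mlxipl, which encodes the carbohydrate sensor ChREBP, was the 1 called gene and fell by 2.14 on the log2 scale (adjusted p 0.0385). Epas1, the most abundant regulator, had a log2 fold change of 0.37 (adjusted p 0.452).

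Among the 11 tested genes of acyl-CoA synthesis, droplet formation and VLDL assembly, the quasi-likelihood test called 0. At an unadjusted p under 0.05 there were 3, against 24.9% of all tested genes. EdgeR's exact and likelihood ratio tests each called 1, and DESeq2 called 2, Acsl1 and Tm6sf2. Over all 13734 tested genes these called 1776, 1835 and 2093. The most abundant genes of the 3 lists were Acsl1 (log2 fold change -0.98, adjusted p 0.0706), the droplet formation gene Fitm2 (0.32, adjusted p 0.672) and the VLDL protein gene Apob (-0.34, adjusted p 0.604).

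The known targets of PPARα and of the hypoxia-inducible factors (HIF) gave 1 called gene each with the quasi-likelihood test. The likelihood ratio test, DESeq2 and the exact test each called 3 of the HIF targets (by DESeq2 Bnip3, Ndrg1 and Slc2a1) and 1 of the PPARα targets, and 5 and 1 had an unadjusted p under 0.05. Over all 13734 tested genes these tests called 1835, 2093 and 1776. The quasi-likelihood test called 7.23% of all tested genes, and 24.9% had an unadjusted p under 0.05. Ehhadh, a peroxisomal enzyme of fatty acid oxidation and a PPARα target, was at 1482 and 1021 CPM in APAP livers, against 403, 249 and 520.03 CPM in saline livers, a log2 fold change of 1.68 (SE 0.37, adjusted p 0.0443). Of the 13 tested PPARα targets, 11 had a positive log2 fold change, with a median of 0.36, against 52% of all tested genes and a median of 0.03. Slc2a1, the glucose transporter GLUT1 and a HIF target, was at 42.2 and 29.5 CPM in APAP livers, against 11.9, 11.8 and 14.5 CPM in saline livers, a log2 fold change of 1.49 (SE 0.23, adjusted p 0.0174). Of the 9 tested HIF targets, 8 had a positive log2 fold change, with a median of 0.68, and Bnip3, the most abundant, was at -1.08 (adjusted p 0.0879). All 11 calls rested on single libraries in part, since without APAP replicate 1 or WT2 edgeR called 0 of the related genes, with 15 and 18 at an unadjusted p under 0.05, and it called 2 without APAP replicate 3 and 4 without WT1.

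**Figure D5:**
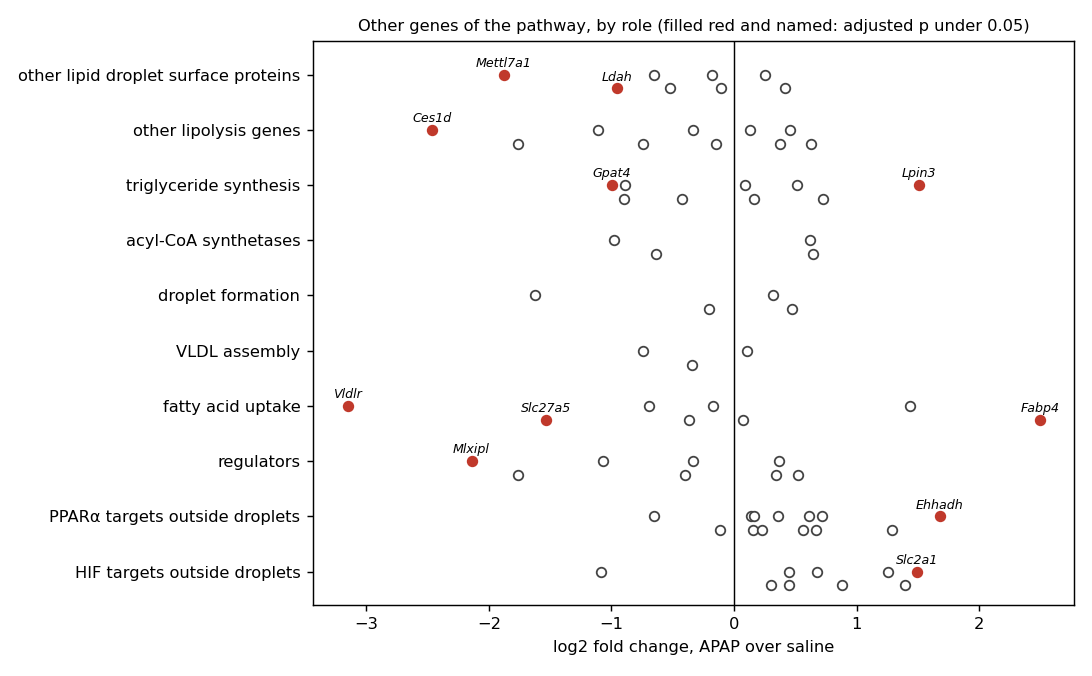
Fitted log2 fold change of each tested gene in the 10 related lists, 1 point per gene, with called genes filled and named. Vldlr, Ces1d and Mlxipl lie lowest, at -3.15, -2.46 and -2.14.

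Neutrophil markers were higher in APAP livers. The 7 listed summed to 111 and 73.1 CPM with APAP and to between 4.57 and 7.82 CPM in saline livers. S100a9, the most abundant, was at 41.5 and 30.3 CPM in APAP livers, against 1.61, 1.13 and 2.004 CPM in saline livers, with a log2 fold change of 4.50 (SE 0.31) and an adjusted p of 0.00181. Of the others several passed the filter on low counts only through the APAP libraries, so a count of called markers says little. Of 9 macrophage and monocyte markers, 2 were called higher (Ccr2 and Chil3), the most abundant, Clec4f, was at 58.9 and 82.3 CPM with APAP and between 78.7 and 91.8 CPM in saline livers, and the summed levels overlapped, at 212 and 333 CPM against 249 to 317 CPM. The part of these cells in the rise of Plin2, Cidec and Hilpda was not tested. Stellate cell markers summed to 277 and 345 CPM with APAP and 318 to 378 CPM in saline livers, and endothelial markers to 79.1 and 121 CPM against 86.0 to 142 CPM. The 5 lymphocyte markers summed to under 5 CPM in each library.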

How the data were processed

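Bulk RNA-Seq libraries of WT mouse liver were read from 1 table of the whole series. The study's methods name an Illumina NovaSeq instrument, credit the read counts to HISAT2 and the FPKM to StringTie. The count columns that the authors deposited hold whole numbers with unequal totals, 1 column per library, and were read as raw counts. The submitters' processing notes name GRCm38 and mm10. Program versions, annotation and strand setting are not given in the sources used here. The 5 columns of FPKM were not used. The columns named WT1 to WT3 were read as the saline group, since the other columns of the table are named for acetaminophen. No label of a saline sample gives these names, so the columns cannot be tied to single numbered samples. The labels do not say that libraries came from separate mice, so p-values measure the spread between these libraries.

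Total counts were between 13378445 and 15976339, and 3 counts, the floor of detection, corresponded to 0.176 to 0.269 CPM. Floors cover counting error only. Libraries of a group differed by more than sampling noise, with a chi-square per degree of freedom of at least 46.7. In R 4.3.3 with edgeR 4.0.16 (limma 3.58.1), filterByExpr (minimum count 10, minimum total 15) kept 13734 genes, counts were scaled by TMM, and the groups were compared by edgeR's quasi-likelihood test, with p-values adjusted by Benjamini-Hochberg over all tested genes. The design had been written for up to 3 APAP libraries. Steps were tested on simulated data. CPM are means of scaled counts, and RPKM divide them by the exon bases of each gene in GENCODE M21, where 34344 of the 34745 identifiers were found, 27772 with identical start, end and strand. Ratios within a library were compared by exact permutation tests. Promoter windows came from RefSeq and were searched with Python 3.11.15.

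The 10 genes and all lists were chosen with earlier results of these data known. Besides the 10 genes, the text names every called gene and the most abundant gene of each related list, the most abundant marker of each cell type, and genes that overlap a member. A gene that this rule would name is not reported here. Abhd5, Cfd, Adipoq, Lep, Ccr2, Chil3, Xist, Ddx3y, Fgb, Ttr, Tat, Apoa1, Serpina1a, Plin1, Ndrg1, Gm12551, Acsl1 and Tm6sf2 were named outside this rule or after their values were seen. Alternatives were the likelihood ratio test, the exact test, DESeq2 1.42.0, RLE and upper-quartile factors, library size alone, looser and stricter count filters, the threshold of the study and leaving out each library.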

Additional observations from a re-analysis of the deposited data

How the results depend on the processing

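No paired analysis was possible because the saline columns carry names that cannot be tied to the numbered saline samples, so no library of one group has a numbered partner in the other. The 993 genes called became 1835 with the likelihood ratio test, 1776 with the exact test, 2093 with DESeq2 (1.42.0) and 3228 by the threshold of the study, and between 165 and 922 with 1 library left out. The lowest count came without WT2, and it was 235 without APAP replicate 1, 401 without APAP replicate 3 and 510 without WT1. Of the 10 droplet genes, between 1 and 3 were called with 1 library left out, and Hilpda was the 1 called without APAP replicate 1, WT1 or WT2. Related genes called were 20 with DESeq2 and 23 by the threshold of the study, and between 0 and 8 with 1 library left out. With library size as the only scaling, 77.8% of called genes were higher with APAP against 51.2% in the reported fit, and without APAP replicate 1 or 3 this share was 61.7% or 61.1%. With at least 10 counts required in every library, Cidec was not tested. Signs turned only in genes that were not called. Plin4 was at -0.57 without APAP replicate 1 and at most 2.68, without WT3. Plin5, at -0.000142 in the reported fit, was at 0.000253 with the likelihood ratio and exact tests, 0.061 with upper-quartile factors, 0.39 with library size alone, 0.013 with the stricter filter, 0.36 without APAP replicate 3 and 0.79 without WT3, and at least -0.49, without APAP replicate 1. G0s2 was at 0.012 with upper-quartile factors, 0.32 with library size alone, 0.05 without APAP replicate 1 and 0.68 without WT3, and at least -0.33, without WT1. The cause of these changes was not tested. The log2 ratio of Plin4 to Plin2 was 0.01 without APAP replicate 3, against -0.97. Shares of the perilipins were also computed with the longest transcript as length, chosen after seeing the data, and Plin2 then made up 90.9% and 94.3% with APAP and between 62.7% and 82.5% with saline. With 2 APAP libraries, differences as small as those of Plin3 and Cideb were at or below the limit of detection.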
